A study of Mus musculus with 3 samples.

Results

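The cytosolic ribosomal protein genes are described here at their promoters, in ATAC-seq of mouse islets. Members were taken by symbol from the autosomal protein-coding genes of the GENCODE annotation on mm9: Rpl or Rps followed by 1 or 2 digits and optionally a, x, y or l, plus Rplp0, Rplp1, Rplp2 and Rpsa. This gave 76 members among 21410 autosomal protein-coding genes, 45 of the large subunit and 31 of the small subunit. Another 4 symbols fitted but lie on the X chromosome and were kept apart. The rule uses symbol and chromosome.

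In ATAC-seq a transposase cuts and tags DNA wherever chromatin is open enough to let it in. The assay was applied to cells from isolated Langerhans islets of C5LBl6 mice in 3 libraries. The first came from wild type mice (WT), the second from Taf4 KO mice 1 week after inactivation and the third from Taf4 KO mice 5 weeks after it. Taf4, which belongs to the TFIID complex that loads RNA polymerase II onto promoters, was inactivated in adult mice by tamoxifen through an insulin-promoter Cre-ERT2 transgene and floxed alleles. Only beta cells were targeted, so the other islet cells kept the gene in every library. There was 1 library per group, so the spread between animals is unknown, no p-value was computed, and both comparisons share the same WT library. Fewer open cells and less opening per cell cannot be told apart in such bulk samples.

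A ribosome is built from a small subunit, which reads the mRNA, and a large subunit, which joins amino acids, each holding ribosomal RNA and many proteins made in near equal amounts. Their genes are among the most strongly and evenly transcribed of any cell, and in mammals their mRNAs begin with a pyrimidine tract, the 5′ terminal oligopyrimidine (TOP) motif, through which growth signals control their translation. Their promoters are open in most cell types, and a beta cell, which makes large amounts of insulin, depends on a high capacity for protein synthesis.

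The promoter sequences below show the stretch of DNA that the peaks lie over. They run from 120 bases before the main annotated start to 30 bases from it, 5′ to 3′ on the strand of the gene, and were read from the NCBIM37 (mm9) genome. Capitals mark CCGGAAG, the core of the site bound by ETS factors, or its reverse complement. The first 3 belong to the members with the strongest WT peaks among those that hold this motif and had a peak in all 3 lists.
Rpl37 (chr15:5066493-5066642, plus): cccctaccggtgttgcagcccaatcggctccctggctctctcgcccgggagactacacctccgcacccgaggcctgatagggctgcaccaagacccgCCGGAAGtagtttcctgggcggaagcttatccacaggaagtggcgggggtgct
Rpl15 (chr14:19103552-19103701, minus): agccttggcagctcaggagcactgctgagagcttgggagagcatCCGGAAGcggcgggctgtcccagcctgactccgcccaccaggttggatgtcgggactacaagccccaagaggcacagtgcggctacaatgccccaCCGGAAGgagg
Rps27l (chr9:66793773-66793922, plus): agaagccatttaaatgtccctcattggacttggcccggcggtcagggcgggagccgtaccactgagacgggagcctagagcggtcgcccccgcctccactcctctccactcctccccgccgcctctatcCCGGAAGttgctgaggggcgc

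The next 4 belong to the members with the strongest WT peaks among those that hold the motif and had no promoter peak at 1 week, so that both kinds of promoter can be read side by side.
Rps25 (chr9:44215677-44215826, plus): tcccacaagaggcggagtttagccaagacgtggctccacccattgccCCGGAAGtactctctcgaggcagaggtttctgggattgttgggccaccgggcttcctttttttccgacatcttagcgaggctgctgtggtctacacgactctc
Rplp2 (chr7:148633149-148633298, plus): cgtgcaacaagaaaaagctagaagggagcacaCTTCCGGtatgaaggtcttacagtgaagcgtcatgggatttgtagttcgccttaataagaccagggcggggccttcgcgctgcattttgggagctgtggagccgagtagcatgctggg
Rpl26 (chr11:68714965-68715114, plus): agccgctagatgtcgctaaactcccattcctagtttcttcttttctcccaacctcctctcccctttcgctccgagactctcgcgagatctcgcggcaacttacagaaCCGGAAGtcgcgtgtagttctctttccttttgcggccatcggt
Rps10 (chr17:27772192-27772341, minus): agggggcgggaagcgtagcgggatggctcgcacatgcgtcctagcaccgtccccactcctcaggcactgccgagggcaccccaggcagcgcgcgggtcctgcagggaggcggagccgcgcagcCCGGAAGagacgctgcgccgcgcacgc

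The last 3 belong to the members that had no promoter peak in any list, all of them paralogs expressed in few tissues.
Rpl3l (chr17:24864654-24864803, plus): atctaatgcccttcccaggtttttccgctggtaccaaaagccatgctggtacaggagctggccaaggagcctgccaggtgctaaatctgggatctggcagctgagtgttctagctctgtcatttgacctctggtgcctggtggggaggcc
Rpl10l (chr12:67385359-67385508, minus): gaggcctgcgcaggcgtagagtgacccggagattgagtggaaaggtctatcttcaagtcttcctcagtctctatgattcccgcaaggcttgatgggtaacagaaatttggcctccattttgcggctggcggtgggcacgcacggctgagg
Rpl39l (chr16:10170201-10170350, plus): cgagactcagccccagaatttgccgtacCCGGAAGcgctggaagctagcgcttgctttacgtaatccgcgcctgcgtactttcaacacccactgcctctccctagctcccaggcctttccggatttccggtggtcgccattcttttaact

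In the window from 200 bases before to 50 bases after the main start, CCGGAAG on either strand was held by 26 of 76 members (34.2%), beside 10.5% of all autosomal genes and 16.02% of those with a WT promoter peak. It was found in 14 of the 46 members with a peak at 1 week and in 11 of the 27 without one. The other letters searched on both strands were TATAA, held by 27.6% of members and 19.5% of all genes, AAGATGG, the core of the YY1 site, by 11.8% and 5.88%, GGGCGG, the GC box, by 47.4% and 43.9%, CCAAT, the CCAAT box, by 31.6% and 33.3%, and the palindromic site of NRF1 by 1.32% and 1.14%. Among genes with a WT promoter peak the shares were 9.70% for TATAA, 5.93% for AAGATGG and 63.4% for GGGCGG. They were 33.7% for CCAAT and 1.80% for the NRF1 site. Beside these genes, members thus held GGGCGG less often and TATAA more often. A stretch could count for more than 1 motif. CCAAT was in 20 of the 46 members with a peak at 1 week and in 4 of the 27 without. TATAA was in 14 and 7 of them, AAGATGG in 6 and 3, GGGCGG in 24 and 12, and the NRF1 site in 1 and 0. Over all genes with a WT promoter peak, the peak was absent at 1 week for 11.4% of those with CCAAT and 16.5% of those without. With and without the motif it was 20.3% and 14.2% for TATAA and 15.7% and 14.6% for CCGGAAG. For AAGATGG it was 20.8% and 14.4%, for GGGCGG 12.8% and 18.2%, and for the NRF1 site 12.2% and 14.8%. These counts describe letters in a window and say nothing of binding.

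The pyrimidine tract at the start was searched on the strand of the gene as CTTTC, or else as CTTTT, or else as CCTTT. Within 10 bases of the annotated main start it was held by 6 of 76 members (7.89%) and 4.82% of all genes. Searched from 10 bases before to 50 bases after that start, a window chosen after the first count was known, it was held by 30 members (39.5%) and 13.8% of all genes. It was in 19 of the 46 members with a peak at 1 week and in 10 of the 27 without. The 4 sequences here belong to the members with the strongest WT peaks among those with a tract up to base 30, and run from 20 bases before the start to 30 bases from it. Capitals mark the unbroken run of C and T around the match.
Rpl13a (chr7:52384089-52384138, minus): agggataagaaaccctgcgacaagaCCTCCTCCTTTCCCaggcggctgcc
Rplp1 (chr9:61762316-61762365, minus): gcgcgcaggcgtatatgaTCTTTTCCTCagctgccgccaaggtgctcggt
Rpl22 (chr4:151699942-151699991, plus): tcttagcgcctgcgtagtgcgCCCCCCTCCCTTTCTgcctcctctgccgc
Rpl5 (chr5:108329501-108329550, plus): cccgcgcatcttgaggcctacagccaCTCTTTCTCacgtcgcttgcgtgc

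The 3 lists differ as wholes, and this touches every count that follows. The WT list holds 60898 peaks, the 1 week list 150354 and the 5 week list 151725, and the depth recovered from the caller's values was 3.66, 6.45 and 9.38 reads of background. The 1 week list stands apart on the X chromosome, which holds 8.13% of its peaks, 2.09% in WT and 0.956% at 5 weeks. The 5 week list holds 44 peaks on the Y chromosome, and the other lists hold 0. Taf4 itself (Taf4a in the annotation) had a promoter peak in all 3 lists, with a -log10 q of 8.53 in WT, against 1.32 at 1 week and 8.01 at 5 weeks, which does not check the deletion. Of 8 beta cell markers fixed by symbol, 8 had a promoter peak in WT, against 7 at 1 week and 7 at 5 weeks, and Slc2a2 was the one without. Of 4 alpha cell markers 3, 4 and 4 had one, of 2 delta cell markers 0, 1 and 2, of 4 acinar markers 0, 0 and 1, of 4 endothelial markers 1, 2 and 3, of 4 immune markers 0, 1 and 1, of 3 muscle markers 0, 1 and 0, and of 3 testis markers 0 in each list.

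Nearly every ribosomal protein gene had an open promoter in WT. Of these genes, 27 had no promoter peak 1 week after Taf4 inactivation, and all 27 had one in the list of 5 weeks. A gene was counted when a peak of its list overlapped, by at least 1 bp, the promoter window, which reaches 1000 bp upstream and 100 bp downstream of each of its starts. In WT this held for 73 of 76 members (96.1%, 95% Wilson interval 89.0% to 98.6%), beside 59.8% of all autosomal genes. At 1 week it held for 46 members (60.5%, 49.3% to 70.8%), beside 56.0% of all genes. At 5 weeks it held for 73 members (96.1%), beside 66.6% of all genes. These intervals cover counting only and not the difference between mice.

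Of the 73 members with a WT promoter peak, 27 (37.0%, 26.8% to 48.5%) had none at 1 week, beside 14.8% of all autosomal genes with one in WT. When peaks needed a -log10 q of 5 or more, 26 members had one at 1 week and 47 of 73 (64.4%) were absent, beside 35.8% of all genes. At 5 weeks 0 of 73 were without a peak (interval 0 to 5.00%), beside 1.82% of all genes. With all genes weighted to the members' spread of WT peak strength, this share was 0.165%. None of the 3 members without a WT peak had gained one, beside gains in 12.6% of such genes at 1 week and 19.7% at 5 weeks. The share without a peak at 1 week was 19 of 42 large subunit genes (45.2%, 31.2% to 60.1%) and 8 of 31 small subunit genes (25.8%, 13.7% to 43.2%), and these intervals overlap.

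**Figure D1:**
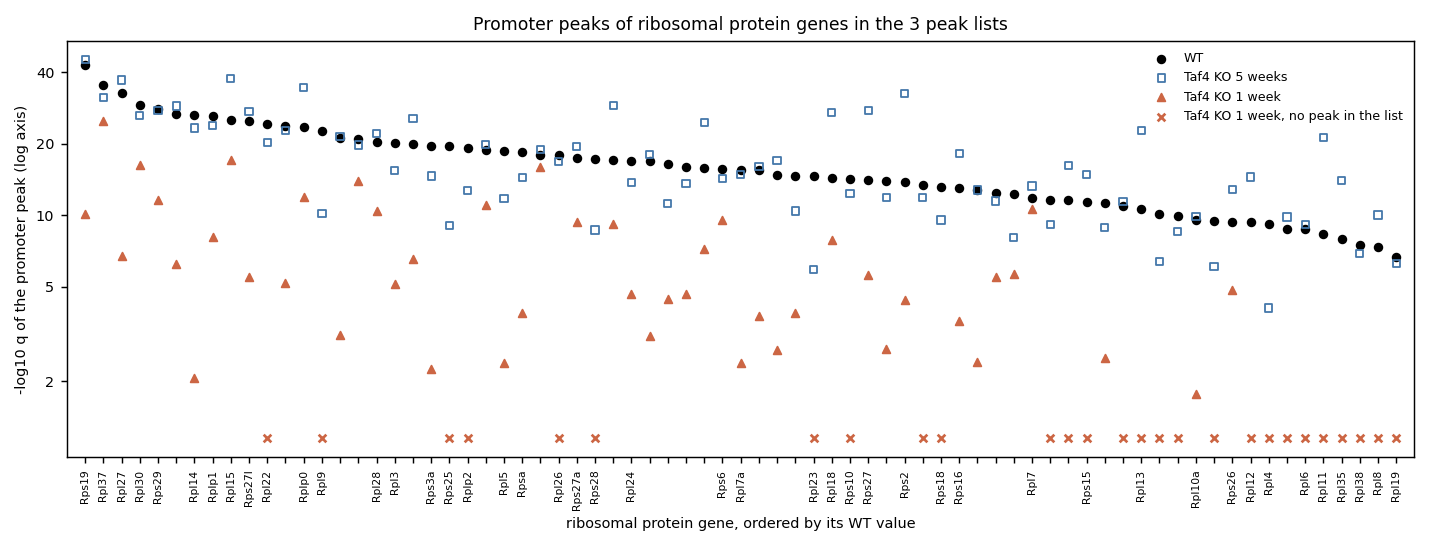
Strength of the promoter peak, as -log10 q on a log axis, of the 73 ribosomal protein genes with a peak in WT, ordered by the WT value, in WT (black circles), at 5 weeks (open blue squares) and at 1 week (orange triangles). Crosses at the bottom mark the 27 genes with no promoter peak in the 1 week list, which crowd toward the weak end of the WT order, while every gene has a 5 week value. Only some of the genes described in the text are labelled.

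Ribosomal protein genes had stronger promoter peaks than the median gene in WT, but not at 1 week. The caller's -log10 q scores the significance of a peak against local background, and it also grows with read depth. Its median was 15.5 over the 73 WT peaks of members, beside 12.2 over all autosomal genes with a promoter peak. It was 5.48 over 46 members and 6.22 over all genes at 1 week, and 14.6 over 73 members and 12.99 over all genes at 5 weeks. Values of separately called lists are not on 1 scale, so each was also ranked within its list. The median member stood at 90.7 in percentiles of all WT peaks, at 85.7 in those of the 1 week list and at 91.6 in those of the 5 week list. Over all genes with a promoter peak these medians were 85.3, 88.0 and 89.8. The 95% binomial intervals of the members' medians were 88.2 to 92.9, 81.5 to 91.6 and 89.5 to 94.8. The members' median was above that of all genes in WT and at 5 weeks, and below it at 1 week. The intervals at 1 week and 5 weeks held the median of all genes. All of these intervals treat the genes of 1 library as independent. They do not cover the difference between mice and decide nothing between the groups. The 1 week median covers only the 46 members with a peak there.

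Fold over the local background was also highest in WT and lowest at 1 week. The median fold of the members' peaks was 4.60 in WT, against 3.32 at 1 week and 4.08 at 5 weeks, beside 4.30, 3.36 and 3.69 over all genes with a promoter peak. In WT the members' folds ran from 2.97 to 7.14, at 1 week from 2.34 to 5.88 and at 5 weeks from 2.66 to 6.64. Of the 46 members with a peak in WT and at 1 week, 43 (93.5%) had a lower fold at 1 week, beside 82.9% of all genes with both peaks. Of 73 at 5 weeks, 54 (74.0%) had a lower fold than in WT, beside 76.5% of all genes.

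Among the large subunit genes, those with the strongest WT peaks were Rpl37, Rpl27 and Rpl30. Rpl37 had a -log10 q of 35.2 in WT, against 24.8 at 1 week and 31.3 at 5 weeks, and it stood at the 99.7, 99.7 and 99.3 percentile of its lists. It was the strongest member at 1 week. Rpl27 had 32.7, 6.74 and 37.0, with a fold of 7.14 in WT, the highest of any member, of 3.62 at 1 week and of 6.64 at 5 weeks. Rpl30 had 29.1, 16.2 and 26.3. Whole lists leave little room near their top, so the place among autosomal genes with a promoter peak is also given. There Rpl27 stood at the 97.9, 54.2 and 98.1 percentile in WT, at 1 week and at 5 weeks, Rpl30 at 95.2, 91.9 and 89.6, and Rpl37 at 98.8, 98.4 and 95.1.

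Rpl22, Rpl9, Rpl26 and Rpl23 were the large subunit genes with the strongest WT peaks among those absent at 1 week, apart from the stalk gene Rplp2. Rpl22, whose protein binds RNA and is needed for T cell development, had a -log10 q of 24.3 in WT and 20.2 at 5 weeks. Rpl9 had 22.5 in WT and 10.2 at 5 weeks, and its WT peak also lay in the promoter window of its neighbour Lias. Rpl26, whose protein also binds the mRNA of p53, had 17.9 and 16.8, and Rpl23, whose protein binds the p53 regulator Mdm2, had 14.6 and 5.91. Ranked among genes with a promoter peak, Rpl22 went from the 89.2 percentile in WT to 76.8 at 5 weeks, Rpl26 from 73.1 to 65.5, Rpl9 from 86.2 to 37.4 and Rpl23 from 60.9 to 19.9, so all 4 stood lower than in WT.

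Rpl5 and Rpl11 join the 5S ribosomal RNA before it enters the large subunit, and free of the ribosome they bind Mdm2. Rpl5 had a -log10 q of 18.7 in WT, against 2.39 at 1 week and 11.7 at 5 weeks, and it stood at the 94.1, 59.6 and 88.0 percentile. Rpl11 had 8.35 in WT, against no peak at 1 week and 21.2 at 5 weeks, and its percentile was 75.7 in WT and 96.6 at 5 weeks, the largest rise of any member. Rpl5 was thus among the stronger members in WT and Rpl11 among the weakest 5, and by 5 weeks their order was the opposite.

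The weakest WT peaks were those of Rpl19, Rpl8, Rpl38, Rpl35 and Rpl11, and none of these 5 had a promoter peak at 1 week. Rpl19 had a -log10 q of 6.67 in WT and 6.27 at 5 weeks. Rpl8, whose protein lies at the centre where peptide bonds form, had 7.33 and 10.01, and Rpl38, which acts in the translation of Hox mRNAs, had 7.496 and 6.88. Rpl35 had 7.95 in WT and 13.9 at 5 weeks. Its WT peak began 78 bases downstream of its only annotated start and was the only WT member peak that did not cover a start. In the 1 week list a peak overlapped that WT peak outside the promoter window, so with the window extended to 1000 bp downstream Rpl35 was counted at 1 week.

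The remaining large subunit genes without a peak at 1 week were Rpl4, Rpl6, Rpl12, Rpl13, Rpl23a, Rpl29, Rpl32, Rpl35a and Rpl36. Their -log10 q ran in WT from 8.72 in Rpl6 to 13.4 in Rpl29 and at 5 weeks from 4.06 in Rpl4 to 22.6 in Rpl13. Rpl4 was the weakest member at 5 weeks, and Rpl13 had 10.6 in WT.

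Several large subunit genes kept a peak at 1 week that ranked far lower than in WT. Rpl14 had a -log10 q of 26.4 in WT, against 2.06 at 1 week and 23.3 at 5 weeks, and its percentile went from 98.4 to 49.2 and back to 97.5, the largest fall at 1 week. Rpl10a had 9.56, 1.77 and 9.88, and at 1 week it was the weakest member called. Rpl7a had 15.5, 2.38 and 14.8, in a peak that also lay in the promoter window of Med22 in every list. In contrast Rpl7 had 11.8, 10.6 and 13.2 and stood 10.5 percentile points above its WT place at 1 week, the largest rise. Its WT peak, 2344 bp, was the widest of any member and also covered the promoter window of Rdh10. Rpl18 had 14.3, 7.88 and 27.1 and was also among the 5 members with the largest rises at 1 week. At 1 week Rpl24 was called only through another of its starts. Its WT peak began at position 55966172 of chromosome 16, and the peaks taken at 1 and 5 weeks began at 55973504 and 55973452, over a downstream start. At 5 weeks Rpl24 also had a weaker peak over its WT peak, with a -log10 q of 9.52, and at 1 week it had none there. Rpl13a also had its strongest 1 week peak at another start, shared with the window of Flt3l, with a -log10 q of 6.21, and a weaker one of 4.64 over its WT peak.

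The P stalk of the large subunit, which recruits the factors that drive elongation, is made of Rplp0, Rplp1 and Rplp2. Rplp0 had a -log10 q of 23.4 in WT, against 11.9 at 1 week and 34.4 at 5 weeks. Rplp1 had 26.2, 8.09 and 23.9. Rplp2 had 19.2 in WT, against no peak at 1 week and 12.7 at 5 weeks. The 3 genes were within 1.5 times of each other in WT, and only Rplp0 exceeded its WT value at 5 weeks. Downstream of the Rplp1 start, only 45.3% of the 40 base words in 200 bases occur once in the genome, the lowest share of any member.

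Among the small subunit genes, Rps19, whose human counterpart is the gene most often mutated in Diamond-Blackfan anaemia, had the strongest WT peak of all members. Its -log10 q was 42.7 in WT, rank 28 of the list, 10.1 at 1 week and 45.1 at 5 weeks. Its width was 1189 bp, 1230 bp and 941 bp. Rps29 followed with 28.0, 11.6 and 27.6. Rps19 was at the 94.7 percentile of the 1 week list and within 0.01 points of its WT place at 5 weeks.

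Rps6, the ribosomal target of S6 kinase, had a -log10 q of 15.6 in WT, against 9.57 at 1 week and 14.3 at 5 weeks. It was 1 of the 5 members with the largest rises of percentile at 1 week, from 90.9 to 94.1. Rpsa, also known as the laminin receptor, had 18.3, 3.87 and 14.4, and the peak was 1244 bp, 350 bp and 714 bp wide. Rps3a had 19.6, 2.26 and 14.6, one of the 5 largest falls at 1 week, although its peak remained 1257 bp wide, near its 1286 bp in WT. Rps26 had 9.38, 4.85 and 12.8.

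Rps27a encodes ubiquitin fused to a ribosomal protein. Its -log10 q was 17.4 in WT, against 9.37 at 1 week and 19.5 at 5 weeks, and its percentile, 92.9 in WT, was 93.8 and 95.6. Rps27l, a paralog of Rps27 that p53 induces, had 24.8, 5.48 and 27.2, and Rps27 itself had 14.1, 5.59 and 27.5. Rps27l thus had the higher value in WT, and the values of the paralogs lay close together in both Taf4 KO lists.

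The 8 small subunit genes without a peak at 1 week included Rps10, Rps15, Rps18, Rps25 and Rps28. Rps25, which some viral and cellular mRNAs need for initiation at internal sites, had a -log10 q of 19.5 in WT and 9.04 at 5 weeks, and Rps28 had 17.2 and 8.65. Both are among the 5 members with the largest falls of percentile at 5 weeks, the others being Rpl23, Rpl9 and Rpl4. The WT peaks of Rps25 and Rps28 also lay in the promoter windows of Trappc4 and Ndufa7. Rps15 had 11.3 in WT and 14.8 at 5 weeks. Rps10 had 14.1 and 12.3, and Rps18 had 13.1 and 9.53. By percentile of whole lists the 5 largest rises at 5 weeks were those of Rpl11, Rpl35, Rpl13, Rpl8 and Rpl12, none of which had a peak at 1 week. Ranked among genes with a promoter peak they were those of Rpl11, Rpl13, Rps2, Rps27 and Rpl18, and the last 3 did have one, as did Rpl5, which then took the place of Rpl4 among the falls.

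Rpl3l, made in heart and skeletal muscle, Rpl10l, made in testis in place of the X-linked Rpl10, and Rpl39l, also of testis, had no promoter peak in any list. Without them all of the 73 other members had a WT promoter peak. By contrast the broadly used paralog Rps27l had one in each list. A further 55 autosomal genes that the annotation calls coding carry the symbol of a ribosomal protein pseudogene, a list drawn up after the data had been seen, and 4 of them had a promoter peak in WT, against 5 at 1 week and 5 at 5 weeks.

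The peaks of members lay over the start of transcription. Of the 73 WT peaks 72 covered an annotated start, as did 43 of 46 at 1 week and 72 of 73 at 5 weeks, beside 93.5%, 90.3% and 93.3% of all genes with a promoter peak. The 3 that did not at 1 week, in Rpl7a, Rps15a and Rps26, lay wholly upstream, ending 37, 54 and 230 bases before the start. Measured from the nearest start, the median WT peak reached 428 bases upstream and 539 bases downstream. At 1 week it reached 343 and 259 bases, and at 5 weeks 422 and 465 bases. Over all genes with a promoter peak the downstream reach was 535, 440 and 564 bases, so the members reached less far downstream than all genes at 1 week and at 5 weeks, and as far in WT.

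**Figure D2:**
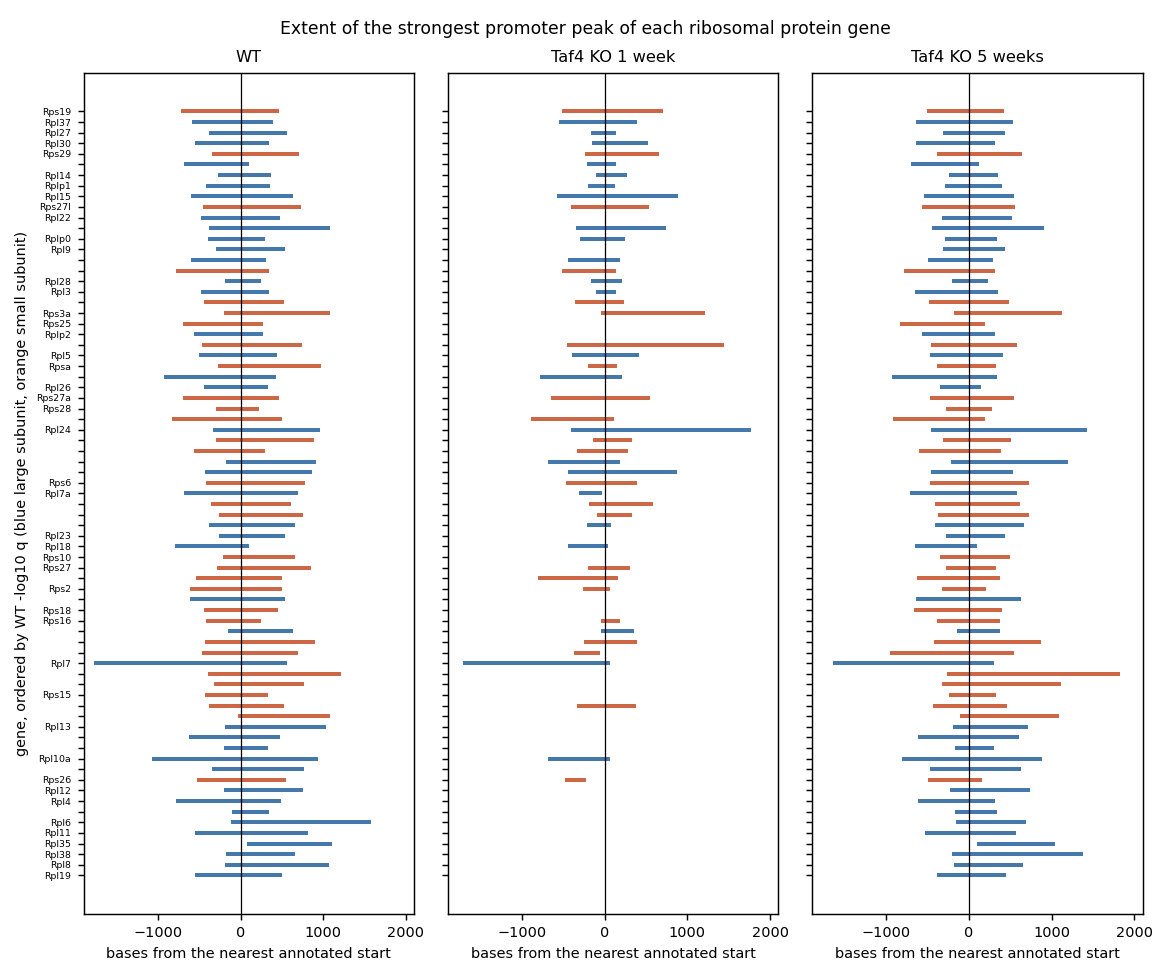
Extent of the promoter peak of each of 73 ribosomal protein genes, in bases from the nearest annotated start (negative upstream), for the 3 lists, with large subunit genes in blue and small subunit genes in orange and the genes in order of WT -log10 q, with some labelled. Rows without a bar in the middle panel are the 27 genes without a promoter peak at 1 week, and many of the remaining bars are shorter there, most of all to the right of the start.

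Members' peaks were 1050 bp wide at the median in WT, from 437 bp in Rpl28 to 2344 bp in Rpl7. The median was 649 bp at 1 week and 972 bp at 5 weeks, beside 1013, 866 and 1081 bp over all genes with a promoter peak. Under 500 bp were 2 of 73 in WT, 17 of 46 at 1 week and 3 of 73 at 5 weeks, beside 8.47%, 21.6% and 8.58% of all genes. Of the 46 members with both peaks 40 (87.0%) were narrower at 1 week than in WT, beside 66.0% of all genes, and at 5 weeks 47 of 73 (64.4%), beside 37.1%. The narrowest at 1 week was Rps16, at 234 bp, from 665 bp in WT. Rpl27 went from 941 bp to 298 bp and Rpl3, whose protein reaches toward the centre where peptide bonds form, from 825 bp to 252 bp. Among the 6 that were not narrower, Rps19, Rps27a, Rps20 and Rpl15 had peaks of 1230, 1211, 1897 and 1456 bp.

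To leave aside the length of the lists, each gene was also ranked among the autosomal genes with a promoter peak of its own list. The median member had a percentile of 64.7 in WT, against 43.4 at 1 week and 56.8 at 5 weeks. Of 46 members with both peaks 38 (82.6%) stood lower at 1 week than in WT, beside 47.8% of all genes. At 5 weeks 49 of 73 (67.1%) stood lower, beside 38.0% of all genes. The median shift was -28.8 points for members and 1.13 points for all genes at 1 week, and -3.70 and 4.04 points at 5 weeks. The strongest peaks, which were the ones ranked, did not overlap the WT peaks for Rpl24 and Rpl13a at 1 week, nor for Rpl24 at 5 weeks. Over the 44 members whose 1 week and WT peaks overlap, a count added after the values were seen, 36 stood lower, 39 were narrower and 41 had a lower fold, beside 48.2%, 66.1% and 83.3% of all such genes. The members began higher than the median gene in WT, and so had more room to stand lower. Rps2 stood at 57.3 in WT, against 33.3 at 1 week and 96.1 at 5 weeks. Rpl14 stood at 92.5, 8.77 and 84.5.

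**Figure D3:**
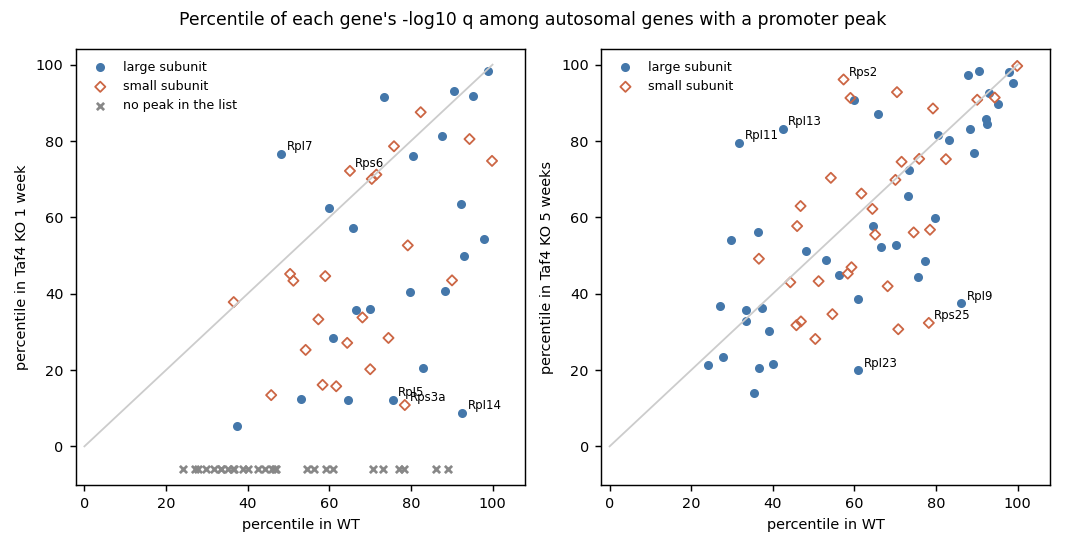
Percentile of each ribosomal protein gene's -log10 q among autosomal genes with a promoter peak, in WT (x axis) and in each Taf4 KO list (y axis), with the line of equal rank. At 1 week 38 of 46 genes lie below the line and grey crosses mark the 27 without a peak, and at 5 weeks 49 of 73 lie below it, with Rpl11, Rpl13 and Rps2 far above.

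The share absent at 1 week moved with 4 properties of the genes. The first was the GC content of the 1 Mb around the gene, in 5 equal groups of the genes with a WT promoter peak. From the lowest group to the highest the promoter peak was absent at 1 week for 2.93%, 7.78%, 11.2%, 21.0% and 30.9% of all genes. Over members it was absent for 0 of 10, 2 of 8, 4 of 13, 8 of 18 and 13 of 24. Members lie in GC-rich surroundings, with 42 of 73 in the upper 2 groups. In 4 of 5 groups their share was above that of all genes, a difference that was not tested. The second was the strength of the WT peak. From the second to the highest group of WT -log10 q, 16.6%, 11.3%, 6.45% and 2.23% of all genes had no peak at 1 week, and 11 of 13, 9 of 19, 5 of 24 and 2 of 17 members. No member was in the weakest group, in which 37.2% of all genes had none. The third was the width of the WT peak. From the narrowest group to the widest the peak was absent for 31.9%, 13.6%, 10.8%, 8.80% and 8.71% of all genes, and for 3 of 7, 8 of 17, 9 of 22, 5 of 23 and 2 of 4 members. The fourth was the GC content of the promoter itself, from 200 bases before to 50 bases after the main start, which ran the other way from that of the surroundings. From the lowest group to the highest the share was 19.7%, 18.6%, 13.2%, 11.5% and 10.7% of all genes, and 10 of 24, 11 of 27, 5 of 16, 0 of 5 and 1 of 1 members.

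**Figure D4:**
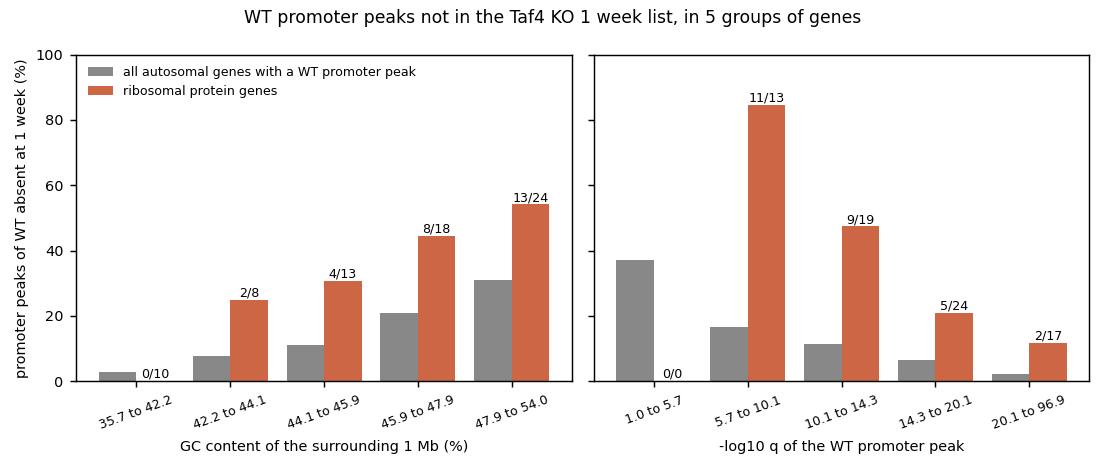
Percentage of genes with a WT promoter peak that had none at 1 week, for all autosomal genes (grey) and ribosomal protein genes (orange). The 5 groups are by the GC content of the surrounding 1 Mb (left) and by the -log10 q of the WT peak (right), with the counts of members above the bars. Both kinds of gene have more absent peaks toward high GC and toward weak WT peaks, and the members' bars exceed the grey ones in every group with members except the lowest GC group.

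If all genes are weighted to the members' spread over the GC groups, 18.6% had no peak at 1 week. Weighted over the groups of WT strength it was 8.55%, and over both together 11.7%, beside 37.0% of members. At 5 weeks the same 3 weightings gave 1.94%, 0.165% and 0.140% of all genes, beside 0 of 73 members. The weighting was chosen after the counts were seen and is a description. The part of GC content, of peak width, of depth and of the odd X chromosome share of the 1 week list in the members' result was not tested. The 27 members absent at 1 week had a median GC content of 47.8% and a median WT -log10 q of 10.9, and the 46 present had 45.6% and 17.2. At 5 weeks the same 27 had a median -log10 q of 10.01 and the 46 had 19.2.

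By chromosome, 5 of 7 members on chromosome 11 had no peak at 1 week, beside 29.9% of all genes there, the highest share of any autosome. On chromosome 17 it was 4 of 6, beside 21.6%. Chromosome 7, which holds most members, had 3 of 14, beside 14.9%. In 18 of the 27 members absent at 1 week the nearest peak of that list lay within 10 kb of the WT peak, and the median distance was 7.02 kb, with 36.3 kb the largest. Over all 1889 autosomal genes with a promoter peak in WT and none at 1 week, 43.9% had a peak within 10 kb, and the median was 12.2 kb. These counts and medians include genes with a 1 week peak that overlapped the WT peak outside the promoter window. They were 1 of the 27 members, Rpl35, and 218 of the 1889 genes.

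Reads were kept by the authors only where they map to 1 place, and ribosomal protein genes have many processed copies in the genome. Over the 200 bases upstream of the main start, 70 of 76 members had only 40 base words that occur once, beside 86.5% of all genes. Over the 200 bases downstream 42 members (55.3%) did, beside 82.3% of all genes. Fewer than 90% of downstream words were unique for 12 of the 46 members present at 1 week and for 3 of the 27 absent, beside 14.7% of all genes. Repeated words thus lay mostly on the transcribed side, and in a smaller share of the members absent at 1 week than of those present. Their part in the calls was not tested.

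Other genes of the translation machinery, fixed by symbol, were counted in the same way. All 76 autosomal mitochondrial ribosomal protein genes, which build the ribosome of the mitochondrion, had a promoter peak in WT, against 49 at 1 week and 76 at 5 weeks, so 27 (35.5%, 25.7% to 46.7%) were absent at 1 week, beside 14.8% of all genes, or 16.6% with all genes weighted to the GC groups of this list. Of 64 annotated genes with a symbol that begins in Eif or Eef and a digit, 60, 45 and 60 had one. At 1 week 15 of 60 (25%, 15.8% to 37.2%) were absent, beside 14.8% of all genes, or 16.1% weighted to the GC groups of this list. Besides the initiation and elongation factors the 64 genes include Argonautes, kinases and binding proteins of such factors, and Eef2k is annotated as 2 genes. Of 14 subunits of RNA polymerases I and III, which make ribosomal and other small RNAs, 14, 11 and 14 had one. Polr1a, Polr1c and Polr3a were absent at 1 week (21.4%, 7.57% to 47.6%), beside 14.8% of all genes. Of 14 ribosome assembly factors, 14, 13 and 14 had one, and Pes1 was absent at 1 week. That was 7.69% of the 13 autosomal ones, beside 14.8% of all genes.

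The 10 ribosomal proteins and relatives outside the rule had a promoter peak in WT, and 9 of them had one at 1 week and 10 at 5 weeks. The exception was Fau, a ubiquitin-like protein fused to a small subunit protein, with a -log10 q of 13.3 in WT and 10.6 at 5 weeks. Gnb2l1, which encodes Rack1 of the small subunit, had 22.5, 3.81 and 13.8. Of the X-linked genes, Rpl10 had 11.3, 4.43 and 10.1, Rpl36a 11.1, 8.57 and 16.4, Rpl39 17.0, 1.84 and 6.22, and Rps4x 11.2, 5.47 and 9.73. All 4 X-linked genes were present in each list, including that of 1 week with its many X chromosome peaks, and their values were lower at 1 week than in WT, as was the median -log10 q over all autosomal genes with a promoter peak, 12.2 in WT and 6.22 at 1 week.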

How the data were processed

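The authors sequenced 1 ATAC-seq library per group (base calls by bcl2fastq 2.17.1.14), mapped reads to mm9 with Bowtie 1.0.0, kept reads that fit 1 place only, and ran MACS2 2.1.1 in broad mode library by library. Neither a control nor removal of duplicates was stated. The deposited lists give for each peak its position, a ratio (fold over the local background), a −log10 p and a −log10 q, which the caller averages along the peak. The deposited whole-number score was not used. Peaks were kept on chromosomes 1 to 19, X and Y, which left out 2 peaks per list on mitochondrial or other sequences.

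Starts were those of protein-coding transcripts in GENCODE on NCBIM37, the build of mm9, and 22359 genes had a window. Of several peaks in a gene's windows the strongest by −log10 q was taken. The main start was that of the transcript numbered first, or the outermost. Percentiles use mid-ranks for ties. Read totals are unknown from peak lists. The background behind each peak was solved from its fold and p, and the first percentile of each list served as its depth. Calls and the background solution were checked on simulated data. Python 3.11.15, numpy 2.4.6, pandas 2.3.3 and scipy 1.17.1 were used.

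Members and lists were chosen with earlier results of these data known. Named genes were those whose call differed between lists, the 5 highest and lowest WT percentiles, the 5 widest and narrowest WT peaks, the 5 largest rises and falls of percentile at each time, and members of known role. Others named in the text, such as Rps2, Rpl13a, Rpl15, Rps20 and the relatives of Rps27l, were chosen after their values were seen. Some members counted in the totals are not reported here by name. Amy2b, a marker, was not matched. Samples were grouped by the genotype and time labels. Alternatives changed the peak threshold, list length, depth, promoter window, starts and peak choice.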

Additional observations from a re-analysis of the deposited data

How the results depend on the processing

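Of 97 values recomputed under other settings, 87 stayed within 1.5 times of the count reported or inside the 95% binomial interval of the median, and 10 moved. The number of members absent at 1 week was 26 to 36 in all settings but one, beside shares of all genes from 14.7% to 21.4%. When peaks needed a -log10 q of 5 or more, 26 members had a peak at 1 week (34.2%, beside 34.0% of all genes), 47 of 73 were absent at 1 week (64.4%, beside 35.8%) and 1 was absent at 5 weeks, which was Rpl4. With reads scaled to the WT background the count was 30 of 73 (41.1%, beside 20.3%), and with lists cut to equal number 31 (42.5%, beside 20.8%). The 27 reported members were all among those absent under every change of the lists. These changes only remove peaks, and the WT peaks of all 73 members remained. The overlap was therefore fixed in advance and is no check of the 27. With the outermost start only, 2 others, Rpl24 and Rps15a, joined and 1, Rps10, left.

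Restricted to the 46 members with a peak in all 3 lists, the median fold at 5 weeks was 4.49 and the median percentile 95.4. With lists of equal number the median percentile was 66.0 at 1 week and 79.2 at 5 weeks, beside 75.02 and 78.2 over all genes. Ranked among promoter peaks only it was 64.7, 43.4 and 56.8 in WT, at 1 week and at 5 weeks. These last shifts follow from the shorter list of peaks ranked. No paired analysis was possible because each group has 1 library. Leaving out a replicate was not possible either. Lists hold only peaks past the caller's threshold, so an absent peak is one not called at the depth of its library.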
